A study of Mus musculus with 12 samples.

Results

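The 10 genes described here encode the liver X receptors and proteins that move cholesterol through and out of macrophages: Nr1h3, Nr1h2, Abca1, Abcg1, Mylip, Cyp27a1, Soat1, Nceh1, Npc1 and Npc2. They were chosen by name from 20661 autosomal protein-coding genes, and open chromatin around each was read from the ATAC-seq peak lists of 12 mouse libraries. ATAC-seq uses a transposase that cuts and tags accessible DNA, so a peak marks a stretch where cuts pile up. Each gene was taken with 50 kb on each side, here called its neighbourhood. Peaks of all libraries were merged into 144562 autosomal regions, of which 257 overlapped a neighbourhood of the 10 genes. All but the neighbourhood of Mylip also hold other protein-coding genes, such as Umodl1 and the trefoil factor genes beside Abcg1, so a region there need not belong to the gene it is listed with.

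The cells were bone marrow-derived macrophages, knocked out (KO) or wild type (WT) for Baf60a, encoded by Smarcd1 and part of the SWI/SNF nucleosome remodelling machinery. The ApoE KO cohort held 2 libraries in each of 4 groups: KO exposed for 48 h to 50 µg/ml of oxidised LDL (oxLDL), KO untreated, WT exposed to oxLDL and WT untreated. All its cells carried floxed Baf60a alleles (Baf60a f/f) and an ApoE KO, with Lyz2 Cre in the KO and no Cre in the WT. Lyz2 Cre is active in the myeloid lineage. These cells had been cryopreserved, and the libraries were built with a Nextera kit. The Omni-ATAC cohort held 1 library of each of the same 4 groups, and its labels give neither the Baf60a allele nor the ApoE status. Cell handling, library protocol, laboratory, ApoE background as labelled and peak caller all followed the cohort. Their parts in a cohort difference cannot be told apart. Nothing in the labels says that libraries of a group came from different mice or culture dishes. The p-values therefore reflect library-to-library spread, which may be technical. With 1 library a group in the Omni-ATAC cohort, fits over all 12 libraries also count disagreement of group differences between the cohorts as spread.

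Liver X receptors are nuclear receptors that bind oxysterols and pair with RXR on DR4 elements, direct repeats separated by a short spacer. In macrophages loaded with sterol they switch on Abca1 and Abcg1, the transporters that hand cholesterol to apolipoprotein A-I and to HDL. Cholesterol from modified LDL first leaves the lysosome through Npc2 and Npc1 and is then stored as ester, hydrolysed again or exported.

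Promoter sequences were taken from RefSeq (GRCm38.p6, the assembly of mm10), which held entries for 8 of the 10 genes. The 4 shown are the 250 bases before the transcription start, 5′ to 3′ on the gene's strand. Abca1 is shown for its DR4 match, Nceh1 for its PU.1 match, Npc2 because its start held the highest-ranked open region of the 10 genes, and Cyp27a1 because its start separated KO from WT libraries in both cohorts on the common percentile, the scale described further on. Capitals mark motif matches.
Abca1 (chr4:53159896-53160145, minus strand): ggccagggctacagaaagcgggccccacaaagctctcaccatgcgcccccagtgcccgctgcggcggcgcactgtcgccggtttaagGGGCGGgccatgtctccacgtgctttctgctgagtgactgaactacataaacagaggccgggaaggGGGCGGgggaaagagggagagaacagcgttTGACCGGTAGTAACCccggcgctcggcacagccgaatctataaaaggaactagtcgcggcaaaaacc
Nceh1 (chr3:27182754-27183003, plus strand): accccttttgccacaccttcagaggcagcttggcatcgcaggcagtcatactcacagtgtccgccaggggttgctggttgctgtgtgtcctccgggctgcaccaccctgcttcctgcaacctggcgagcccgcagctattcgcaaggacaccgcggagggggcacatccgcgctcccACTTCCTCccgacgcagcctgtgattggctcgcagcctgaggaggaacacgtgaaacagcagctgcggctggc
Npc2 (chr12:84773113-84773362, minus strand): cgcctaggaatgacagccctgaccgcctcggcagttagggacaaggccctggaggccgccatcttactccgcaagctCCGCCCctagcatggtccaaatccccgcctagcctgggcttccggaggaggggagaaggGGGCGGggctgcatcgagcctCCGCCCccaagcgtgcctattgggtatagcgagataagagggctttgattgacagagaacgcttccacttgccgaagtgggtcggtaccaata
Cyp27a1 (chr1:74713285-74713534, plus strand): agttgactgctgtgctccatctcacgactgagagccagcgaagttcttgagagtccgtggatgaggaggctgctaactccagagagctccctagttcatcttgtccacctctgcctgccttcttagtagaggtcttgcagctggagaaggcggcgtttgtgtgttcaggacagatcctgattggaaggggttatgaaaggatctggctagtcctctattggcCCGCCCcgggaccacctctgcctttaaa

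Motifs were searched on both strands of the 300 bases from 250 before to 50 after the start, and shares are of 32851 RefSeq promoters of that length. The DR4 element, searched as a pair of degenerate receptor hexamers, occurred in 0.718% of promoters and in 1 of the 8 genes. That match in Abca1, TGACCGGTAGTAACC as printed, lies on the other strand, 53 to 67 bases before the start. The PU.1 motif GAGGAAGT, named for the macrophage factor encoded by Spi1, occurred in 3.20% of promoters and in 1 of the 8, Nceh1, 66 to 73 bases before the start on the other strand. The GC box GGGCGG occurred in 35.7% of promoters and in 5 of the 8: Abca1, Npc2, Cyp27a1, Mylip and Soat1. Npc2 held 3 copies and Abca1 held 2, and the Soat1 copy lay after the start. The receptor hexamer AGGTCA, in 16.3% of promoters, and the AP-1 motif TGANTCA, in 7.81%, were not found in the windows of the 8 genes. A match describes letters and was not tested as a binding site.

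Lists of the ApoE KO cohort held 24397 to 44524 peaks and those of the Omni-ATAC cohort 82177 to 141441, and the deposited lists hold no reads, so sequencing depth is unknown. A region with no call is therefore not shown to be closed. The Smarcd1 start had a peak in all 12 libraries. The labels do not name the exons that were deleted, so this peak checks no label. The Apoe start had a peak in 3 of the 8 ApoE KO cohort libraries (2 KO, 1 WT) and in all 4 Omni-ATAC libraries. Of 8 macrophage marker genes, 5 to 8 had a called start per ApoE KO cohort library and 8 in every Omni-ATAC library. Of 4 B cell markers 0 and 0 to 2 were called in these cohorts, of 4 T cell markers 0 and 0 to 1, of 4 neutrophil markers 1 and 1 to 2, of 2 erythroid markers 1 and 1, and of 3 dendritic cell markers 0 to 1 and 2 to 3. Cd79a, Cd79b, Cd3e, Cd3d, Lck, S100a9, Mpo and Hbb-bs had no called start in any library, and the part of the other types in the results was not tested.

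Calls around the 10 genes differed in extent between cohorts, and no region was called by genotype or by treatment. Of the 257 regions, 103 were called in at least 1 ApoE KO cohort library and 253 in at least 1 Omni-ATAC library. These were 40.1% and 98.4% of the 257, against 39.2% and 96.3% of all merged regions. Single ApoE KO cohort libraries called 62 and 66 of them in KO oxLDL, 81 and 60 in KO untreated, 53 and 44 in WT oxLDL, and 55 and 85 in WT untreated. Omni-ATAC libraries called 184 in KO oxLDL, 242 in KO untreated, 157 in WT oxLDL and 208 in WT untreated. Per library these were 17.1% to 33.1% of the 257 in the ApoE KO cohort and 61.1% to 94.2% in the Omni-ATAC cohort. The same libraries called 15.9% to 29.8% and 51.5% to 93.6% of all merged regions. In both cohorts the longest list was KO untreated and the shortest WT oxLDL, and the part of list length in these counts was not tested. All 12 libraries called 35 regions, 13.6% of the 257 against 11.997% of all merged regions. By position, 10 of the 257 lay at a start of the 10 genes, 18 at the start of another gene, 96 elsewhere inside the 10 genes, 56 inside another gene and 77 between genes. The start regions were called throughout most often: 7 of those 10, and 10 of the 18 at other genes' starts, were among the 35. Inside the 10 genes 11 of 96 were, inside other genes 3 of 56 and between genes 4 of 77.

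No region around the 10 genes separated the genotypes or the treatments by its calls. With at least 5 of 6 libraries of the first condition and at most 1 of 6 of the second, 0 of 257 regions were called in KO and not in WT, where 0.038% of all regions were. In the opposite direction the count was 0, against 0.00138% of all regions. For oxLDL and not untreated cells the count was 0, against 0% of all regions, and for untreated and not oxLDL cells 0, against 0.0401%. These counts were not tested. By cohort, 0 regions were called in 8 of 8 ApoE KO cohort libraries and in 0 of 4 Omni-ATAC libraries, against 0.0387% of all regions. The opposite split, 0 of 8 against 4 of 4, held for 57 regions (22.2%), against 15.7% of all regions. Abcg1 contributed 16 of the 57, which is 47.1% of its 34 regions, and Nr1h2 contributed 1 of its 16 regions.

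**Figure D1:**
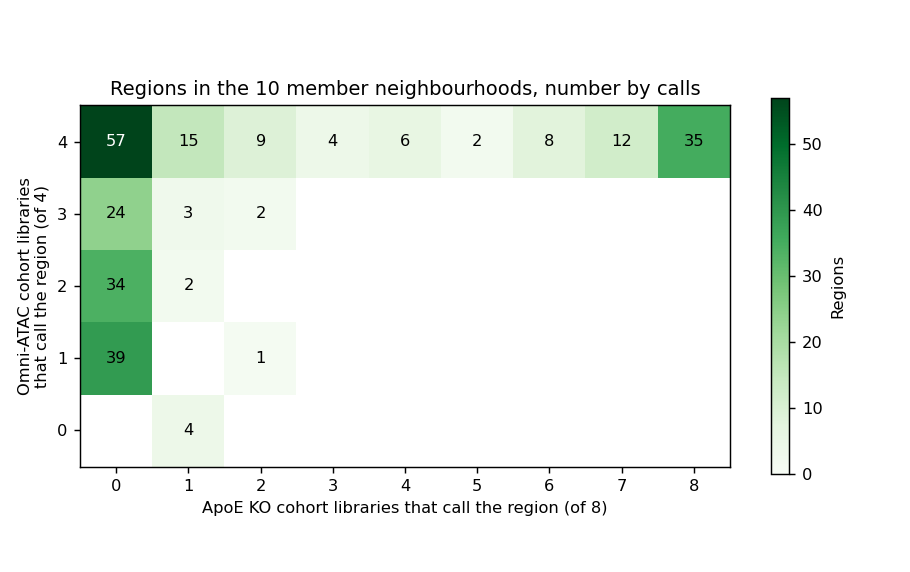
Number of regions in the neighbourhoods of the 10 genes, by how many ApoE KO cohort libraries (x axis, of 8) and Omni-ATAC cohort libraries (y axis, of 4) called them. The cells with the most regions are 57 at 0 and 4, 39 at 0 and 1, and 35 at 8 and 4, and the only cell with no Omni-ATAC call holds 4 regions called in 1 ApoE KO cohort library.

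The 4 regions called in the ApoE KO cohort and in no Omni-ATAC library all lay inside Abca1 and were each called in 1 library. The 5 highest-ranked of the 57 regions, by mean percentile in the lists that called them, lay near Nr1h3 (1), inside or beside Abcg1 (3) and beside Nceh1 (1). The highest was an intergenic region at chr2:91250093-91250630, 54.98 kb from the start of Nr1h3. Its peak stood at percentile 86.0 of the KO oxLDL list, 74.7 of the KO untreated list, 75.2 of the WT oxLDL list and 59.4 of the WT untreated list of the Omni-ATAC cohort. An intragenic region of Abcg1 at chr17:31088686-31089290 stood at 61.2, 84.8, 58.9 and 82.2 in the same 4 lists. In that region both oxLDL lists were below both untreated lists, with 1 library a group and no test. The untreated lists were also longer, with 138132 (KO) and 106477 (WT) autosomal peaks, against 93867 and 80394 in oxLDL. Percentiles of lists of unequal length are not directly comparable, and the part of list length was not tested.

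**Figure D2:**
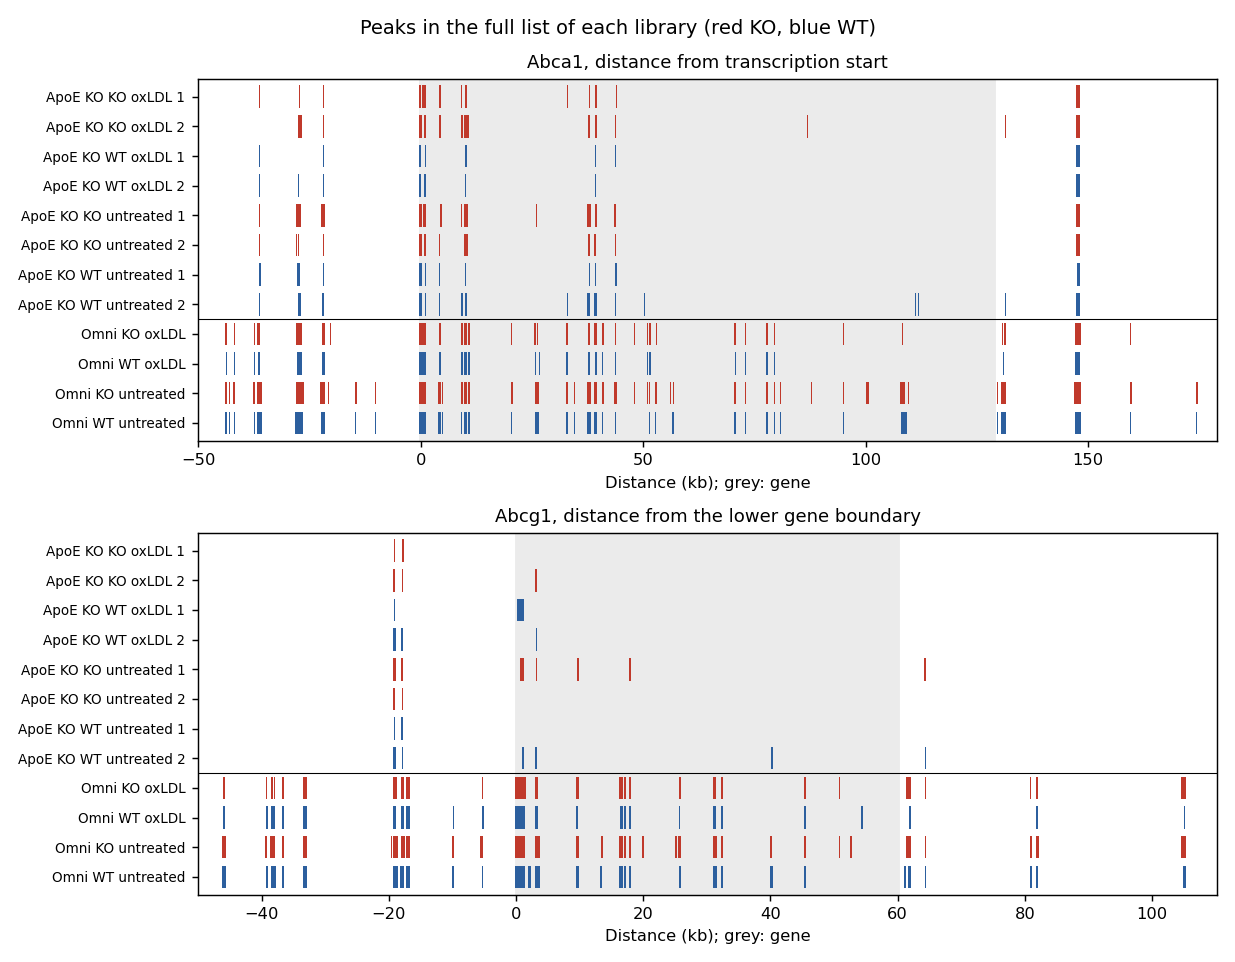
Peaks in the full list of each library around Abca1 (upper panel) and Abcg1 (lower panel), by distance in kb from the transcription start or, for Abcg1, from the lower gene boundary. Red is KO, blue is WT and grey is the gene; peaks narrower than the drawing limit are widened to be visible. The start of Abca1 carries a peak in every row, whereas the start of Abcg1 carries one in 3 of 8 ApoE KO cohort rows and in all 4 Omni-ATAC rows.

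Each of the 10 genes had a region at its start, as did 68.4% of all autosomal protein-coding genes, and 7 of the 10 were called in all 12 libraries, against 42.8% of all genes. Calls at the receptors and at Abcg1 were incomplete in the ApoE KO cohort. The region at Nr1h3, which encodes LXR alpha (chr2:91194558-91195432), was called in 6 of 8 ApoE KO cohort libraries and 4 of 4 Omni-ATAC libraries. The missing calls were in KO untreated 2 and WT oxLDL 2. The region at Nr1h2, which encodes LXR beta (chr7:44553016-44554720), was called in 7 of 8 and 4 of 4, without WT oxLDL 2. The Abcg1 region (chr17:31057477-31059227) was called in 3 of 8, namely KO untreated 1, WT oxLDL 1 and WT untreated 2, and in 4 of 4. WT oxLDL 2 had the shortest list, with 24397 peaks, and KO untreated 1 the longest of its cohort, with 44524.

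Where they were called in the ApoE KO cohort, these 3 starts held low to middling peaks. A percentile of 100 is the highest score of a list. Nr1h3 stood at 15.2 and 25.5 in KO oxLDL, 29.4 in KO untreated 1, 12.3 in WT oxLDL 1, and 24.8 and 46.8 in WT untreated. Nr1h2 stood at 52.7 and 41.2 in KO oxLDL, 69.2 and 52.8 in KO untreated, 64.1 in WT oxLDL 1, and 40.9 and 63.7 in WT untreated. In both genes the KO and WT ranges overlapped. In the longer Omni-ATAC lists Nr1h3 stood between 65.8 and 68.9, Nr1h2 between 92.3 and 96.0, and Abcg1 between 60.6 and 65.9, while Abcg1 in its 3 ApoE KO cohort lists stood between 15.4 and 34.9. Lists of unequal length give unequal percentiles, so these values were not compared between cohorts.

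For the other 7 starts a common scale was available: the percentile of a region's highest score among the 17343 regions that all 12 libraries called, here called the common percentile. In the ApoE KO cohort the order from the highest median was Npc2 (range 94.0 to 99.0), Npc1 (80.5 to 92.3), Nceh1 (69.2 to 89.3), Abca1 (52.2 to 78.3), Mylip (49.8 to 80.0), Soat1 (4.00 to 34.9) and Cyp27a1 (0.657 to 26.1). Neighbours in this order overlapped, except that every Npc2 value was above every Npc1 value and every Mylip value above every Soat1 value. In the Omni-ATAC cohort the ranges were 70.3 to 97.1 for Npc2, 59.2 to 85.8 for Npc1, 58.1 to 88.4 for Nceh1, 33.7 to 64.6 for Mylip, 13.7 to 31.8 for Abca1, 14.7 to 21.9 for Cyp27a1 and 4.397 to 18.3 for Soat1. The authors' own fold enrichment, deposited for the ApoE KO cohort alone, ran from 7.89 to 12.5 at Npc2, 4.51 to 8.07 at Abca1, 2.69 to 4.19 at Soat1 and 2.58 to 3.78 at Cyp27a1.

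**Figure D3:**
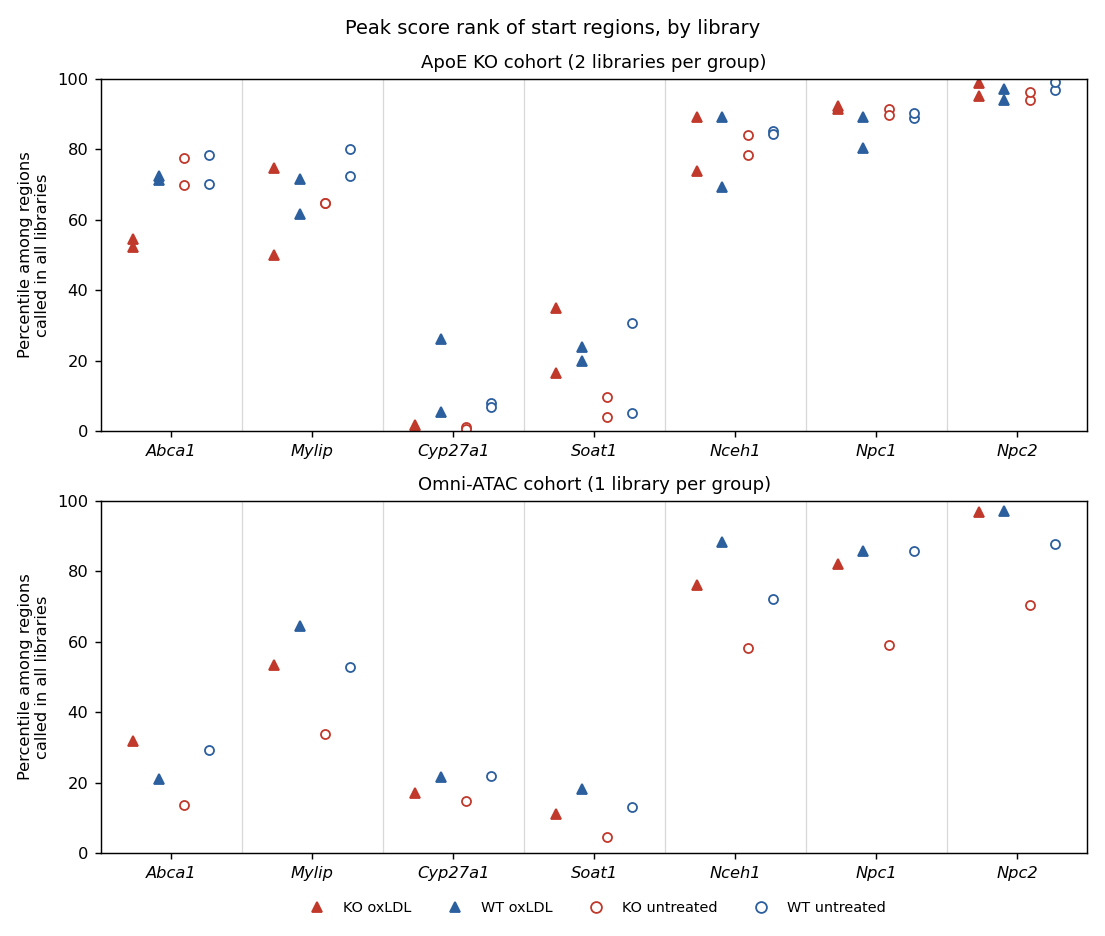
Common percentile of the start region (y axis, 0 to 100) of the 7 genes whose start was called in all 12 libraries, with the ApoE KO cohort above and the Omni-ATAC cohort below. Each symbol is 1 library, with red for KO, blue for WT, filled triangles for oxLDL and open circles for untreated. Abca1 lies between 52.2 and 78.3 in the upper panel and between 13.7 and 31.8 in the lower, and the red symbols of Cyp27a1 lie below the blue in both panels.

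Among the exporters, Abca1 had its start region at chr4:53158622-53160318, across the DR4 match printed above. Its common percentile in the ApoE KO cohort was 54.6 and 52.2 in KO oxLDL, 77.6 and 69.8 in KO untreated, 72.4 and 71.2 in WT oxLDL, and 70.0 and 78.3 in WT untreated. The Omni-ATAC values were 31.8 in KO oxLDL, 13.7 in KO untreated, 21.0 in WT oxLDL and 29.3 in WT untreated. The 2 KO oxLDL libraries were the lowest of the ApoE KO cohort, whereas KO oxLDL was the highest of the Omni-ATAC cohort. Over all 12 libraries limma gave a KO minus WT difference of -7.08 ± 6.67 points (SE, adjusted p = 0.644) and an oxLDL minus untreated difference of -5.94 ± 6.67 (adjusted p = 0.810). Peaks in the region covered 925 to 1364 bp in KO and 617 to 992 bp in WT libraries of the ApoE KO cohort, and 1645 to 1694 bp in KO and 1626 to 1669 bp in WT libraries of the Omni-ATAC cohort. The KO minus WT difference in log2 width, less each library's median, was 0.13 ± 0.13 (SE, adjusted p = 0.800).

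Cyp27a1 encodes the mitochondrial sterol 27-hydroxylase, which makes an oxysterol that can bind liver X receptors. Its start region (chr1:74712114-74714258) ranked low, with common percentiles of 1.66 and 1.21 in KO oxLDL, 1.18 and 0.657 in KO untreated, 5.31 and 26.1 in WT oxLDL, and 8.05 and 6.80 in WT untreated cells of the ApoE KO cohort. In the Omni-ATAC cohort it stood at 17.1 in KO oxLDL, 14.7 in KO untreated, 21.5 in WT oxLDL and 21.9 in WT untreated. On this scale KO libraries were below WT libraries without overlap in both cohorts. The authors' fold enrichment, given for the ApoE KO cohort, did overlap, with 2.88 and 2.61 in KO oxLDL, 3.78 in KO untreated 1, the highest of the 8, 2.58 in KO untreated 2, 3.16 and 3.77 in WT oxLDL, and 3.06 and 3.53 in WT untreated. Percentiles within each library's own list overlapped as well, at 11.9 to 36.7 in KO and 22.2 to 44.5 in WT libraries of the ApoE KO cohort, and at 76.6 and 78.9 in KO and 77.0 and 80.9 in WT libraries of the Omni-ATAC cohort. KO was below WT without overlap in both cohorts on the common percentile at 1 of the 35 regions called in all libraries around the 10 genes, against 0.946% of all such regions, and the opposite order held for 0 of 35, against 1.01%. The KO minus WT difference was -8.88 ± 4.25 points (SE) and did not pass adjustment over all regions (limma, Benjamini-Hochberg adjusted p = 0.329, 0.192 to 0.999 over all fits). Without WT oxLDL 2 of the ApoE KO cohort, its highest library, the difference was -5.51 points (adjusted p = 0.522).

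Mylip encodes the ubiquitin ligase IDOL, an LXR target that degrades the LDL receptor. Its start (chr13:45389353-45391120) stood at 49.8 and 74.8 in KO oxLDL, 64.8 and 64.8 in KO untreated, 61.5 and 71.6 in WT oxLDL, and 80.0 and 72.4 in WT untreated cells of the ApoE KO cohort. Among Omni-ATAC libraries KO oxLDL stood at 53.3, KO untreated at 33.7, WT oxLDL at 64.6 and WT untreated at 52.7. KO and WT overlapped in both cohorts, and the KO minus WT difference was -10.29 ± 6.22 points (SE, adjusted p = 0.446).

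Soat1 esterifies cholesterol for storage in lipid droplets, and Nceh1 hydrolyses these esters again. The Soat1 start (chr1:156473916-156474703) stood at 34.9 and 16.4 in KO oxLDL, 9.51 and 4.00 in KO untreated, 19.8 and 24.0 in WT oxLDL, and 30.6 and 5.14 in WT untreated cells of the ApoE KO cohort. The Omni-ATAC values were 11.2 in KO oxLDL, 4.397 in KO untreated, 18.3 in WT oxLDL and 13.1 in WT untreated. KO oxLDL was above KO untreated in both cohorts, while WT groups overlapped in the ApoE KO cohort. The share of all regions with this order among KO libraries was not counted. The oxLDL minus untreated difference over both genotypes was 9.64 ± 5.21 points (SE, adjusted p = 0.569). The Nceh1 start (chr3:27182606-27184321) ranged from 73.8 to 89.3 in KO and 69.2 to 89.3 in WT libraries of the ApoE KO cohort, and from 58.1 to 76.1 in KO and 72.2 to 88.4 in WT of the Omni-ATAC cohort. Its KO minus WT difference was -4.78 ± 4.52 points (SE, adjusted p = 0.646).

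Npc2 binds cholesterol inside the lysosome and passes it to Npc1, the membrane protein that lets it leave. The Npc2 start (chr12:84772573-84774238) stood at 98.8 and 95.0 in KO oxLDL, 94.0 and 96.4 in KO untreated, 94.0 and 97.1 in WT oxLDL, and 96.7 and 99.0 in WT untreated cells of the ApoE KO cohort. In the Omni-ATAC cohort it stood at 96.8 in KO oxLDL, 70.3 in KO untreated, 97.1 in WT oxLDL and 87.8 in WT untreated. The Npc1 start (chr18:12235334-12237220) ranged from 89.8 to 92.3 in KO and 80.5 to 90.4 in WT libraries of the ApoE KO cohort, and stood at 82.2 in KO oxLDL, 59.2 in KO untreated, 85.8 in WT oxLDL and 85.7 in WT untreated of the Omni-ATAC cohort. The KO untreated library of the Omni-ATAC cohort, which had the longest list, was the lowest of the 12 at both genes. The KO minus WT differences were -3.40 ± 2.75 points for Npc2 and -2.34 ± 3.54 points for Npc1 (SE, adjusted p = 0.577 and 0.784). Within the ApoE KO cohort alone the Npc1 difference was 4.02 points.

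Taking the 7 starts as a set, the KO minus WT difference was below 0 in 7 of 7, with a median of -5.10 points. Over all 7839 start regions on this scale 70.8% were below 0 and the median was -3.07 points. None of the 7 passed adjustment, against 0.0128% of all start regions and 0.0404% of all 17343 regions. Their adjusted p-values ran from 0.329 to 0.784. Npc1 had the opposite sign in the ApoE KO cohort alone. Among oxLDL cells of that cohort the difference of means was above 0 at Soat1 (3.73 points), Nceh1 (2.29), Npc1 (7.00) and Npc2 (1.38). It was below 0 there at Abca1, Mylip and Cyp27a1. Leaving out single libraries also turned the sign at Npc1 and Npc2. For oxLDL minus untreated, 1 of 7 was below 0, with a median of 3.29 points, against 39.7% below 0 and a median of 1.33 over all start regions. In the ApoE KO cohort alone the difference was below 0 also at Mylip (-6.08 points), Nceh1 (-2.59), Npc1 (-1.79) and Npc2 (-0.33). In the fit over all 12 libraries none passed, against 0% of all start regions and 0.00577% of all regions. The lowest adjusted p was 0.530, at Npc2. The difference of the oxLDL response between KO and WT passed for 0 of 7 and for 0% of all regions (limma interaction term, adjusted p of 0.991 to 0.996). At an unadjusted p below 0.05, 2628 of the 17343 regions differed by genotype, 1625 by oxLDL and 739 by the interaction.

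The full set of 35 regions called in every library gave no call for genotype or oxLDL either, with 3 and 4 of them at an unadjusted p below 0.05. The lowest adjusted p for genotype belonged to the start of Pold1, a DNA polymerase gene next to Nr1h2 (chr7:44547770-44549233). It stood at 55.4 and 72.1 in KO oxLDL, 44.0 and 42.3 in KO untreated, 64.2 and 69.1 in WT oxLDL, and 72.5 and 88.5 in WT untreated cells of the ApoE KO cohort. Among Omni-ATAC libraries it stood at 71.9 in KO oxLDL, 41.4 in KO untreated, 79.5 in WT oxLDL and 61.9 in WT untreated. KO was below WT without overlap among untreated cells of both cohorts, and overlapped it among oxLDL cells of the ApoE KO cohort. How many of all regions show this order was not counted. In the ApoE KO cohort both WT untreated libraries carry the mark L001 in their file names and both KO untreated libraries L003. Genotype and mark cannot be told apart among those untreated cells. The difference was -18.12 ± 5.97 points (SE, adjusted p = 0.170, 0.0823 to 0.999 over all fits).

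The lowest adjusted p for oxLDL belonged to an intragenic region of Abca1 at chr4:53148854-53150271, 9.62 kb from the start. Its common percentile in the ApoE KO cohort was 71.1 and 73.0 in KO oxLDL, 57.5 and 35.5 in KO untreated, 55.2 and 53.6 in WT oxLDL, and 38.5 and 51.7 in WT untreated. The Omni-ATAC values were 61.8 in KO oxLDL, 36.8 in KO untreated, 68.0 in WT oxLDL and 33.6 in WT untreated. Within each genotype of each cohort every oxLDL library was above every untreated library. Among WT cells of the ApoE KO cohort, both untreated libraries carry the mark L001 and both oxLDL libraries L003. Treatment and mark cannot be told apart among those WT cells. With the genotypes pooled, the treatments overlapped in the ApoE KO cohort. How many of all regions show the within-genotype order was not counted. The difference was 21.52 ± 6.71 points (SE) and did not pass adjustment (limma, adjusted p = 0.364). At the Abca1 start the corresponding difference was -5.94 points. These 2 regions were picked from the 35 by their p-values.

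An intragenic region of Soat1 at chr1:156459488-156460632, 13.70 kb from its start, was the highest-ranked of that gene. It stood at 46.1 and 53.3 in KO oxLDL, 65.3 and 38.7 in KO untreated, 43.3 and 28.2 in WT oxLDL, and 54.2 and 40.1 in WT untreated cells of the ApoE KO cohort. The Omni-ATAC values were 45.7 in KO oxLDL, 77.4 in KO untreated, 36.0 in WT oxLDL and 85.2 in WT untreated. Both Omni-ATAC oxLDL libraries were below both untreated ones, whereas the treatments overlapped in the ApoE KO cohort. The oxLDL minus untreated difference was -18.06 ± 7.65 points (SE, adjusted p = 0.478). An intragenic region of Spib, which encodes the ETS factor Spi-B, lies in the neighbourhood of Nr1h2 and was the 1 of the 35 where oxLDL libraries were below untreated ones without overlap in both cohorts, against 0.496% of all regions. The opposite order held for 0 of 35, against 0.392%.

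Peak numbers per neighbourhood were compared in lists cut to equal length within a cohort, 24397 peaks for the ApoE KO cohort and 80394 for the Omni-ATAC cohort. Abca1 had 9 to 11 peaks in KO and 8 to 11 in WT libraries of the ApoE KO cohort and 23 to 26 in KO and 27 in both WT libraries of the Omni-ATAC cohort. Abcg1 had 1 to 3 peaks in KO and 2 to 3 in WT libraries of the ApoE KO cohort, and 20 in KO and 23 to 25 in WT libraries of the Omni-ATAC cohort. In the ApoE KO cohort Cyp27a1 had 1 peak in all 4 KO libraries, against 2 and 3 in WT oxLDL and 4 and 2 in WT untreated. In the Omni-ATAC cohort it had 15 in KO oxLDL, 17 in KO untreated, 13 in WT oxLDL and 17 in WT untreated, so the groups did not overlap in the first of these cohorts and did in the second. Nr1h2 had 3 peaks in each KO library of the ApoE KO cohort, against 3 and 3 in WT oxLDL and 5 and 4 in WT untreated, and 9 in KO oxLDL, KO untreated and WT oxLDL of the Omni-ATAC cohort, against 13 in WT untreated. For none of the 10 genes were KO and WT, or oxLDL and untreated, separated without overlap in both cohorts: KO was below WT so for 0.269% of all genes and above for 0.0419%, and oxLDL was below untreated for 0.0299% and above for 0.0359%.

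**Figure D4:**
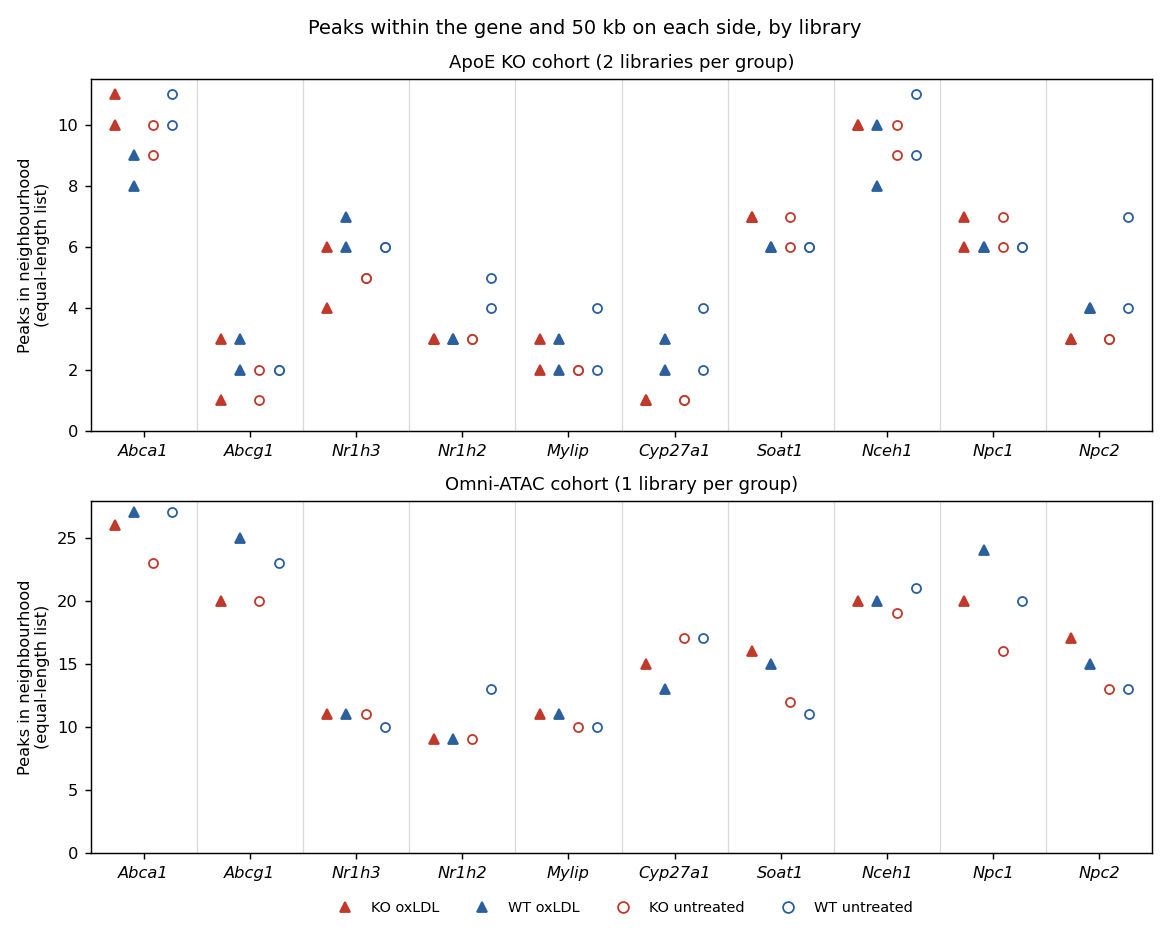
Peaks within the gene and 50 kb on each side (y axis, lists of equal length) for the 10 genes, by library, with the ApoE KO cohort above and the Omni-ATAC cohort below. Red is KO, blue is WT, filled triangles are oxLDL and open circles are untreated, and libraries with the same count overlie each other. Cyp27a1 has 1 peak in every red symbol of the upper panel, and the y axes of the panels differ.

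None of the 10 neighbourhoods passed for genotype, oxLDL or their interaction, against 0% of 16704 genes tested in each (limma on log2(peaks + 0.5), which understates changes at low counts). At an unadjusted p below 0.05, 1531 genes differed by genotype, 1067 of them lower in KO, 1068 by oxLDL and 657 by the interaction. The KO minus WT difference was below 0 for 7 of the 10, against 56.8% of all genes, with a median of -0.16 against -0.03, and it turned above 0 for the same 7 in lists of full length, where the median of all genes was 0.21. Cyp27a1 had the most negative value, -0.68 ± 0.24 (SE, adjusted p = 0.517), and 0.16 in full lists. Nr1h2 had the lowest p, with -0.25 ± 0.05 (SE, adjusted p = 0.378), and its interaction, the oxLDL response in KO minus that in WT, was 0.51 ± 0.10 (adjusted p = 0.939). For oxLDL 5 genes were below and 5 above 0, and the lowest adjusted p was 0.608.

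**Figure D5:**
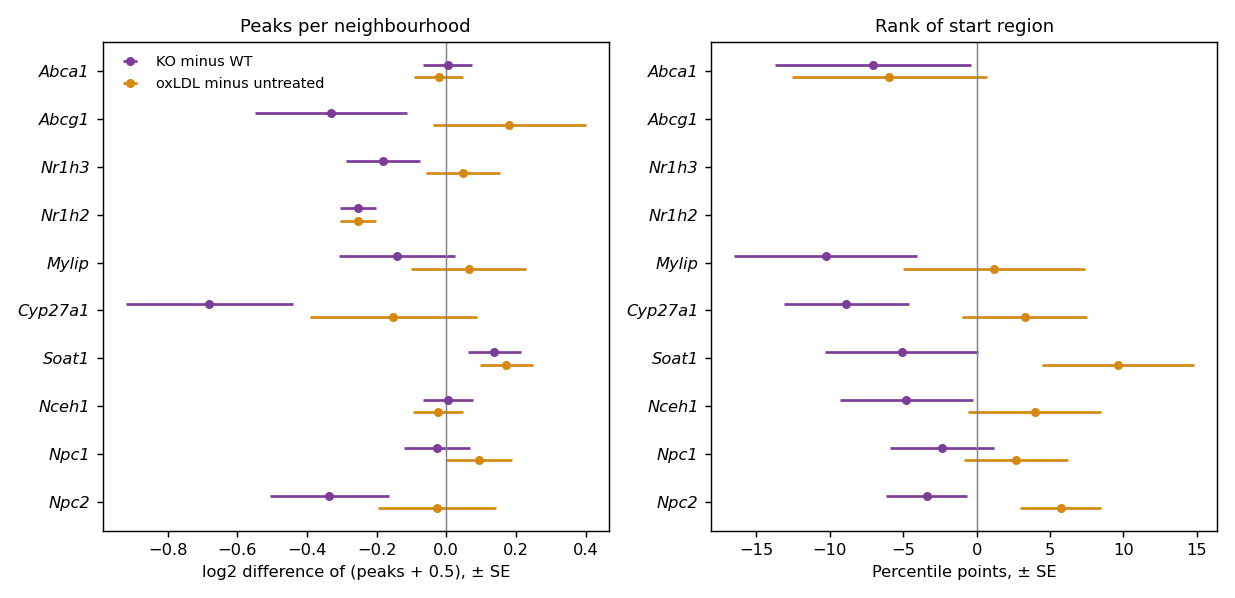
Differences of KO minus WT (purple) and oxLDL minus untreated (orange) for the 10 genes over all 12 libraries, with bars of 1 SE. The left panel gives log2 differences of peaks per neighbourhood plus 0.5 in equal-length lists, and the right panel percentile points of the start region, which is empty for Abcg1, Nr1h3 and Nr1h2 because their starts were not called in every library. All 7 purple points on the right lie below 0, between -10.29 and -2.34, and none of the points passed adjustment.

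The cohorts differed at more of these regions than the genotypes or treatments did. On the common percentile 21 of the 35 regions passed, 12 higher and 9 lower in the ApoE KO cohort, against 55.5% of all 17343 regions (28.5% higher and 27% lower). Among starts 5 of 7 passed, against 58.8% of all start regions. The Abca1 start was 44.30 ± 7.08 points higher in the ApoE KO cohort (SE, limma adjusted p = 2.58e-05), with 68.3 ± 9.75 there and 24.0 ± 8.28 in the Omni-ATAC cohort (mean ± SD, n = 8 and 4). No library of either cohort overlapped the other, and the adjusted p was at most 0.00133 over all fits. Mylip was 16.38 points higher (adjusted p = 0.0402), Npc1 10.9998 (0.0171) and Npc2 8.36 (0.0192), and Cyp27a1 had a difference of -12.44 points (0.0240). Nceh1 (0.162) and Soat1 (0.343) did not pass. The share of all starts at which the cohorts did not overlap, as at Abca1, was not counted.

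The calls at Mylip, Npc1, Npc2 and Cyp27a1 did not hold in every fit. Without trend in the limma variance the adjusted p was 0.0869 at Npc1 and 0.140 at Npc2. At Mylip it was 0.0510 on the logit scale and 0.0690 with a block for the mark L001 or L003 in the file names. Without the 3 ApoE KO cohort libraries marked L001 it was 0.0816 at Mylip, 0.141 at Cyp27a1 and 0.133 at Npc2, and with regions called in at least 10 libraries 0.0989 at Cyp27a1. Single libraries mattered too. Without the KO untreated library of the Omni-ATAC cohort the difference was 4.18 points at Npc1 (adjusted p = 0.210), 2.85 at Npc2 (0.251), 11.49 at Mylip (0.200) and -12.00 at Cyp27a1 (0.0667), so that the values at Npc1 and Npc2 shrank while that at Cyp27a1 changed little. Without its WT untreated library it was 14.00 points at Mylip (0.135), 7.81 at Npc2 (0.0674) and -11.75 at Cyp27a1 (0.0716), and without its KO oxLDL library -11.35 at Cyp27a1 (0.0802). Mylip also missed the threshold when any of 6 ApoE KO cohort libraries was left out, with adjusted p-values from 0.0512 to 0.0872. Nceh1 passed without WT oxLDL 1 of the ApoE KO cohort (11.16 points, 0.0268) or without WT oxLDL of the Omni-ATAC cohort (13.72 points, 0.0265).

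Other regions of the same neighbourhoods differed both ways between cohorts. An intragenic region of Nceh1 at chr3:27209293-27210637, 26.29 kb from its start, ranged from 92.3 to 97.6 in the ApoE KO cohort and from 33.9 to 42.3 in the Omni-ATAC cohort, a difference of 56.49 ± 3.66 points (SE, adjusted p = 5.95e-10). The intragenic Spib region beside Nr1h2, at chr7:44527540-44528479, ranged from 2.53 to 19.1 in the ApoE KO cohort and from 55.5 to 77.1 in the Omni-ATAC cohort, a difference of -57.68 ± 5.93 points (SE, adjusted p = 1.43e-07). An intergenic region 18.58 kb from Abcg1 (chr17:31038319-31039117), the only one of that neighbourhood called in all libraries, ranged from 17.7 to 59.5 in the ApoE KO cohort and from 70.4 to 81.1 in the Omni-ATAC cohort, a difference of -34.72 ± 8.19 points (SE, adjusted p = 0.00122). In each of the 3 regions the cohorts did not overlap. The share of all regions without such overlap was not counted. With regions called in at least 10 libraries, and a missing call set to the lowest rank, the Nr1h2 start had a cohort difference of -41.33 points (adjusted p = 0.000311). The Nr1h3 start differed by -1.60 points in that setting and did not pass (limma, adjusted p = 0.788).

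Covered widths at the starts were larger in the Omni-ATAC cohort, with ranges that overlapped only at Npc1 among the 10 genes (1054 to 1569 bp in the ApoE KO cohort and 1490 to 1883 bp in the Omni-ATAC cohort). Peaks at Nr1h3 covered 136 to 462 bp in the ApoE KO cohort and 806 to 869 bp in the Omni-ATAC cohort, and at Mylip 448 to 836 bp and 1674 to 1762 bp. Over all start regions called in every library, the median width per library was 685 to 1012 bp in the ApoE KO cohort and 1270 to 1494 bp in the Omni-ATAC cohort. These medians did not overlap either, and the share of all start regions without overlap was not counted. Genotype and oxLDL gave 0 calls on width among the 35 regions, against 0% of all regions in both comparisons. At an unadjusted p below 0.05 were 1 and 3 of the 35 and 1188 and 1349 of the 17343.

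Other genes of the pathway were taken from a list of 24 LXR partners, cofactors, targets and cholesterol-handling genes. None of the 24 neighbourhoods passed for genotype, oxLDL or the interaction. For KO minus WT 18 of the 24 were below 0, against 56.8% of all genes. The median was -0.16, against -0.03 over all genes. The smallest p for genotype were at Scd2, a fatty acid desaturase (-0.22, adjusted p = 0.545), and Srebf1, the lipogenic transcription factor (-0.55, adjusted p = 0.557). For oxLDL they were at Lipa, the lysosomal acid lipase (0.28, adjusted p = 0.750), and Smpdl3a, a phosphodiesterase (0.14, adjusted p = 0.750). Of the 24 starts, 15 were called in all 12 libraries. None of these passed for genotype or oxLDL. For genotype 13 of 15 were below 0, against 70.8% of all start regions. The median was -5.70 points, against -3.07 over all start regions. Fasn, fatty acid synthase, had a genotype difference of -20.32 points (adjusted p = 0.216). The smallest p for oxLDL were at Lpcat3, a phospholipid acyltransferase (10.40 points, adjusted p = 0.440), and Lipa (4.58 points, adjusted p = 0.569).

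By cohort 8 of the 15 passed, 5 higher and 3 lower in the ApoE KO cohort, against 58.8% of all start regions. Among those higher, Smpdl3a was 52.24 points higher, Arl4c, a small GTPase, 41.41, Lpl, lipoprotein lipase, 22.97, and Lipa 15.87. The differences were -27.20 points at Mertk, an efferocytosis receptor, -19.00 at Scd1 and -15.97 at Scd2. The start of Rxra, the usual LXR partner, was called in 1 of 8 ApoE KO cohort libraries and 4 of 4 Omni-ATAC libraries, Abca7 in 4 of 8 and 4 of 4, and Cd5l in 0 of 8 and 4 of 4.

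The starts whose common percentile followed that of Abca1 most closely over the 12 libraries, after subtracting each cohort's mean, were those of Slain2 (Pearson r = 0.940), Sugt1 (0.897) and Noct (0.889), out of 7838 starts. These are descriptions of points that share libraries and lists, and the Abcg1 start could not be compared because it was not called in every library.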

How the data were processed

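Peak lists of 12 libraries were analysed as deposited, 1 list per library. Per the submitters' processing notes the tools were MACS2 (ApoE KO cohort) or MACS3 (Omni-ATAC cohort), bedtools 2.28.0, SAMtools 1.2, Picard, Bowtie2 2.3.4.1, cutadapt, Trim Galore and FastQC, with mm10 as build. Their parameters and any transposase shift were not given in the sources used here. With each peak the authors deposited the score of the caller. For the ApoE KO cohort the authors also deposited each peak's fold enrichment, −log10 p and −log10 q. There the score equalled the floor of 10 times the −log10 q, with 0 to 11 exceptions a list. Scores were used only to rank peaks within a list. No list holds reads, so depth is unknown and no interval needing it is given.

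Peaks were merged where they overlapped by 1 bp, on autosomes. Genes and starts came from RefSeq (GRCm38.p6): a start region is the nearest one within 1 kb of the transcription start, or of a gene boundary for Abcg1 and Npc1, which had no promoter entry. For genes averaging 1 peak or more, log2(peaks + 0.5) in equal-length lists, and for regions called in all 12 libraries, the common percentile and log2 covered bp minus the library median were fitted in limma 3.58.1 (R 4.3.3) with 4 genotype-by-treatment groups and cohort. P-values were adjusted by Benjamini-Hochberg over all features, with 0.05 as threshold, after tests on simulated data. Replicate numbers did not pair libraries: correlations of same-numbered libraries' deviations were -0.102 to 0.0584 for the common percentile. Figures and counts used Python 3.11.15, pandas 2.3.3 and numpy 2.4.6 with matplotlib 3.10.9.

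The genes, lists, motifs and tests were chosen with earlier results of these data known. The text names the 10 genes, their start and highest-ranked always-called regions, regions separated by condition, the 5 highest-ranked cohort-separated regions, the 3 starts most like Abca1, and the pathway genes that passed or had the 2 smallest p-values. Other regions were chosen after their values were seen: the Abca1 region 9.62 kb inside the gene, the Spib region, and the Nceh1 region 26.29 kb inside. Rxra, Abca7 and Cd5l were chosen likewise. The values of 1 pathway gene that the rule names are not reported here. Alternatives were full lists, another pseudocount, flank, filter, merge, scale or threshold. Others were a block for the replicate number or the file mark, and fits without libraries or within the ApoE KO cohort. Libraries ApoE KO cohort WT untreated 1 and 2 and KO oxLDL 1 carry the mark L001 and the other 5 of that cohort L003. Among untreated cells of that cohort the mark therefore coincides with genotype, and among its WT cells with treatment.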

Additional observations from a re-analysis of the deposited data

How the results depend on the processing

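For the 10 neighbourhoods, the 7 starts and the highest-ranked region of each gene, no result for genotype, oxLDL or the interaction passed adjustment under any alternative run, and the lowest adjusted p was 0.0823, at the Pold1 start without WT untreated of the Omni-ATAC cohort. The other regions called in all libraries were not refitted. The cause of the shifts below was not tested. The fit without the L001 libraries holds no WT untreated library of the ApoE KO cohort, so that group rests on 1 Omni-ATAC library. Depth is unknown and limits every statement on absent calls.

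Counts of genes passing for peaks per neighbourhood, 0 in the main fits, were as follows. For genotype they were 1 without the gene filter, 2 with flanks of 10 kb, 10 with the better-scored 50% of each equal-length list and 501 in the ApoE KO cohort alone. For oxLDL they were 1, 3, 7 and 440 in these fits and 20 in full lists. For the interaction they were 3, 1, 7 and 431. Whether the fit in the ApoE KO cohort alone is too liberal was not tested. Counts of regions passing on the common percentile by genotype, 7 in the main fit, were 50 on the logit scale, 3 without trend, 3 with a replicate block, 0 without the L001 libraries and 0 in the ApoE KO cohort alone. By oxLDL, 1 in the main fit, they were 6 with regions called in at least 10 libraries and 4 on the logit scale. They were 0 without trend, with a block for the file mark and in the ApoE KO cohort alone. Width by genotype gave 1 in the ApoE KO cohort alone. The replicate block, which rests on numbers that only name libraries, changed no other count by over 1.5 times. Regions called in 0 of 8 ApoE KO cohort and 4 of 4 Omni-ATAC libraries numbered 25 with the better-scored 50% of each list, against 57.

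Signs of uncalled differences turned as follows. In full lists the log2 KO minus WT difference in peaks was 0.067 at Abcg1, 0.16 at Cyp27a1, 0.15 at Mylip, 0.18 at Npc1, 0.13 at Npc2, 0.014 at Nr1h2 and 0.030 at Nr1h3, and the oxLDL difference was -0.42 at Abcg1, -0.36 at Mylip, -0.10 at Npc1, -0.023 at Nr1h3 and -0.12 at Soat1, where the median of all genes was -0.27. With flanks of 10 kb it was 0.12 at Mylip and 0.22 at Nr1h2 for genotype and 0.011 at Npc2 for oxLDL. With the better-scored 50% of the lists it was -0.035 at Nceh1 for genotype, and 0.037 at Abca1, -0.13 at Abcg1, 0.15 at Nceh1 and 0.083 at Nr1h2 for oxLDL. Without the L001 libraries peaks gave -0.0058 at Nceh1 for genotype, and 0.085 at Cyp27a1 and 0.26 at Npc2 for oxLDL. The block for the file mark gave 0.013 at Npc2 for oxLDL. In the ApoE KO cohort alone peaks gave 0.10 at Npc1 for genotype.

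On the common percentile the ApoE KO cohort alone gave, for genotype, 4.02 points at the Npc1 start, 0.85 at the Nipsnap3b start beside Abca1, 0.73 at the Ect2 start beside Nceh1 and 2.34 at the Ddb2 start beside Nr1h3, and for oxLDL -6.08 at Mylip, -2.59 at Nceh1, -1.79 at Npc1 and -0.33 at Npc2. The block for the file mark gave for oxLDL -0.58 at Mylip and 0.16 at the intergenic Abcg1 region. It gave a cohort difference of 0.063 at the Pold1 start, which was 0.020 on the logit scale and 2.91 with regions called in at least 10 libraries. That setting gave -0.78 for genotype at the Wnt6 start beside Cyp27a1. Without the L001 libraries oxLDL gave -0.18 at Npc1 and genotype -3.68 at the Soat1 intragenic region.

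Leaving out 1 library at a time, counts ranged from 0 to 89 genes for genotype, 0 to 54 for oxLDL and 0 to 61 for the interaction in peaks, from 1 to 146 regions for genotype and 0 to 3 for oxLDL on the common percentile, and from 0 to 1 for width by genotype. Regions called in KO and not WT numbered 0 to 1 (1 without KO untreated 2 or KO oxLDL 2 of the ApoE KO cohort) and those called in untreated and not oxLDL cells 0 to 2 (2 without KO oxLDL or WT oxLDL of the Omni-ATAC cohort, 1 without KO untreated 2 or WT untreated 1 of the ApoE KO cohort). Percentile differences that changed sign ranged, for genotype, from -4.57 to 2.20 at Npc1, -5.24 to 0.27 at Npc2, -2.62 to 0.83 at Nipsnap3b, -3.17 to 6.27 at the intergenic Abcg1 region, -2.29 to 3.58 at Wnt6, -2.30 to 0.73 at Ect2 and -10.95 to 4.36 at Ddb2. For oxLDL they ranged from -0.079 to 5.47 at Cyp27a1, -2.07 to 5.17 at Mylip, -1.88 to 4.89 at Npc1, -3.24 to 0.20 at Nipsnap3b and -7.05 to 1.91 at the Abcg1 region, and between cohorts from -6.38 to 4.102 at Pold1 and -10.82 to 0.67 at Ddb2. Peak differences ranged from -0.044 to 0.041 at Nceh1 and -0.085 to 0.052 at Npc1 for genotype, and -0.078 to 0.022 at Abca1, -0.026 to 0.20 at Mylip, -0.062 to 0.025 at Nceh1 and -0.16 to 0.12 at Npc2 for oxLDL.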
